A study of Mus musculus with 6 samples.

Results

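The genes of oxidative phosphorylation were followed in mouse liver across pregnancy. They were taken by symbol: every gene whose symbol begins with Nduf, Sdha to Sdhd, Uqcr, Cox4 to Cox8 or Atp5 and that was read by a probe set with exactly 1 gene symbol. This gave 94 of the 18193 genes tested. They comprised 34 subunits of complex I, 4 of complex II, 8 of complex III, 10 of complex IV, 17 of complex V, 13 assembly factors and 8 isoforms that are mainly used in tissues other than liver. Ndufa4 was counted with complex IV, where its protein is now placed. Sdhaf1 to Sdhaf4 begin with Sdha and were counted as assembly factors, as was Cox7a2l. Where a gene had several probe sets (53 of the 94), the one with the highest mean over all arrays was used. Ndufs6, Ndufa11 and Cox7b were not among the genes analysed here.

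The livers came from CYP2D6-humanized mice, C57BL/6 animals that carry a transgene for the human drug-metabolising enzyme CYP2D6, and all 3 groups carried it. The groups were livers before pregnancy, at day 21 of pregnancy and at day 7 postpartum, with 2 biological replicates in each and 1 array per liver, 6 arrays in all. The sources used here do not give the promoter of the transgene, the animals' ages, their feeding or the hour at which livers were taken, so any such difference between the groups and the stage cannot be told apart. Values are levels on a log2 scale, so that a difference of 1 is a 2-fold change. Because probe sets differ in brightness, a level is compared only with the level of the same gene in another liver.

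Oxidative phosphorylation is the set of reactions in the inner mitochondrial membrane that turn the electrons of food into ATP. Complex I takes electrons from NADH and complex II takes them from succinate; both pass them to coenzyme Q, from which complex III hands them to cytochrome c and complex IV to oxygen. The proton gradient built on the way drives complex V, the ATP synthase. Hepatocytes depend on it for costly work such as urea synthesis and gluconeogenesis and for the disposal of electrons from fatty acid oxidation. Most subunits are made from nuclear genes and imported, and only the nuclear genes are described here. Transcription factors known to act on many of these genes include NRF1, the ETS factor GABPA, YY1 and the oestrogen-related receptor ESRRA.

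Promoter sequences of 5 members are shown to let a reader compare a pair that holds these factors' motifs several times or together (Sdha and Sdhd), 1 that holds a single motif (Ndufaf4) and a pair that holds none (Uqcrfs1 and Ndufv3). Ndufaf4, Uqcrfs1, Sdhd and Ndufv3 changed in pregnancy, and Sdha is the catalytic partner of Sdhd. Each sequence is the 250 bases before the annotated start, read 5′ to 3′ on the gene's strand from RefSeq (GRCm38.p6), and motif matches are in capitals. Sdha lies at chr13:74350241-74350490, minus strand. Sdhd lies at chr9:50603850-50604099, minus strand. Ndufaf4 lies at chr4:24897833-24898082, plus strand. Uqcrfs1 lies at chr13:30545317-30545566, minus strand. Ndufv3 lies at chr17:31519865-31520114, plus strand.
Sdha: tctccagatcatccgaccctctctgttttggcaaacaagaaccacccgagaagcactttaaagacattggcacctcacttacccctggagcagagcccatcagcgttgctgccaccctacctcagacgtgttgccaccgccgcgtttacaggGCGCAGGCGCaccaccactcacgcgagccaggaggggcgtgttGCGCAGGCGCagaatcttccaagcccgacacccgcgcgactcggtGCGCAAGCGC
Sdhd: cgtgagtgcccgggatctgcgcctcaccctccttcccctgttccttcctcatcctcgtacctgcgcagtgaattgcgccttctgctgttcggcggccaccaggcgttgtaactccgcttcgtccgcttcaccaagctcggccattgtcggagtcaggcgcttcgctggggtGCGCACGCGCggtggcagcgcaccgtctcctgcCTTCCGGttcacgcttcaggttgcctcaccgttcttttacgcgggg
Ndufaf4: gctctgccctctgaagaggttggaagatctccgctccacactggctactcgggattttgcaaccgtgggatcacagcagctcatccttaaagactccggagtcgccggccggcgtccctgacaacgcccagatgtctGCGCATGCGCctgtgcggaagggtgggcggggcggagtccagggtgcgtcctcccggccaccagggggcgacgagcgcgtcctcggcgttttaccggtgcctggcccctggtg
Uqcrfs1: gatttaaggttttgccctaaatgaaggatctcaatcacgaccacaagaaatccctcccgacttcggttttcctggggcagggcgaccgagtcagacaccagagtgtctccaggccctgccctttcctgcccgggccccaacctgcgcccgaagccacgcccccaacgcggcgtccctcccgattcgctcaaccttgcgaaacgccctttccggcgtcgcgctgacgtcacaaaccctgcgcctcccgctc
Ndufv3: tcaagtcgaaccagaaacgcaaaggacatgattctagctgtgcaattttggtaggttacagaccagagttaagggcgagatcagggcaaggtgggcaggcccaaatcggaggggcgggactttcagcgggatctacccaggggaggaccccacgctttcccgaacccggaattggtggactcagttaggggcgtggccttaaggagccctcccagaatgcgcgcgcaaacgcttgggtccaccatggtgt

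The capitals in Sdha are 3 matches to the NRF1 motif, read as GCGCA, any base and GCGC. Sdhd holds 1 NRF1 match and, read on the other strand, 1 match to the ETS motif CCGGAAG, while Ndufaf4 holds 1 NRF1 match. Both strands were searched, and YY1 was read as AAGATGGCG and ESRRA as TNAAGGTCA in separate searches, so matches to different motifs may overlap. RefSeq promoters were matched by gene ID for 78 members. The NRF1 motif was present in 12 of them (15.4%), against 4.23% of the 27025 genes with a promoter of the same length. The ETS motif was present in 16 (20.5%), against 7.83%, the YY1 motif in 1 (1.28%), against 0.71%, and the ESRRA motif in 2 (2.56%), against 1.3%. At least 1 of these motifs was present in 26 members (33.3%), against 13.0% of genes. The genes set against the members were not limited to those tested on the arrays. Nor were they matched to the members in brightness or base content. A match is a string of letters and does not show binding.

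Most probe sets of these genes were bright on the arrays: 68 of 94 had a mean level of at least 11, a level reached by 1156 of all genes tested, where the median gene stood at 6.38. The other end held 7 members that lay under the 40th percentile of all genes (5.51), among them 5 of the isoforms of other tissues and the single-symbol probe sets of Ndufb4 and Cox7c. Array medians over all probe sets lay between 5.09 and 5.15, and replicate arrays correlated across genes at 0.994 to 0.997. Markers of hepatocytes, 7 of 8 measured, had a summed linear level of 146222 to 154378 over the 6 arrays and none (0) passed the test in any comparison. Endothelial markers summed to 4026 and 4064 in pregnancy, against 4750 and 6030 before pregnancy, and 3 of 8 fell. Kupffer cell and macrophage markers summed to 4032 and 4958 in pregnancy, against 5352 and 5381 before it, and 2 of 7 fell. Pancreatic acinar markers summed to 666 and 828, against 131 and 141, and 1 of 3 rose. Of all genes, 8.25% were called lower and 5.46% higher in this comparison. The part of these cell types in the results below was not tested. In whole liver, fewer cells of a type and less RNA per cell cannot be told apart.

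At day 21 of pregnancy 8 of the 94 genes were lower than before pregnancy and 1 was higher at an adjusted p under 0.05. Those that fell were Ndufs1, Ndufs5, Ndufa5 and Ndufb5 of complex I, the assembly factor Ndufaf4, Sdhd of complex II, and Uqcrc2 and Uqcrfs1 of complex III; Ndufv3 of complex I rose. Each change was modest, between 1.31-fold and 1.6-fold. No subunit of complex IV or V passed the test (0 of 10 and 0 of 17) on the probe set used for it, although second probe sets of Cox7a2, Atp5a1 and Atp5pb did when every probe set was fitted by itself. Over all genes tested, 8.25% were called lower and 5.46% higher, so 8 of 94 (8.51%) lower is a share near the background. The count rested on all the livers: without the first pre-pregnancy replicate 0 members were called lower, without the second pre-pregnancy replicate or either pregnant liver 3, and without either postpartum liver, which only enters the estimate of spread, 4. Ndufs1 and Uqcrc2 remained called in 5 of these 6 fits, Ndufaf4 in 4 and Uqcrfs1 in 3.

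Beneath the calls, the direction was shared by most members. The fitted difference between pregnancy and pre-pregnancy was below 0 for 75 of 94 members (79.8%), against 42.2% of all genes and 55.8% of the genes with a mean level of at least 11. The median difference was -0.195 over the members, 0.045 over all genes and -0.05 over the bright genes. Both pregnant livers lay below both pre-pregnancy livers for 59 of 94 members, where 26.0% of all genes did so, and above both for 10 of 94, where 33.6% did so. At an unadjusted p under 0.05, 34 members were lower (15.8% of all genes) and 6 higher (15.2%).

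Seen liver by liver, the median member stood 0.11 and 0.13 below its own mean over the 6 livers in the pregnant livers, against 0.09 and 0.02 above it in the pre-pregnancy livers. In the postpartum livers it stood 0.05 and 0.08 above. The median member was lowest in the 2 pregnant livers. Within a stage, the second liver stood off the first by a median of -0.065 before pregnancy, -0.035 in pregnancy and 0.04 postpartum. Over all genes tested, the median gene stood between -0.03 and 0.02 from its own mean over the 6 livers.

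**Figure D1:**
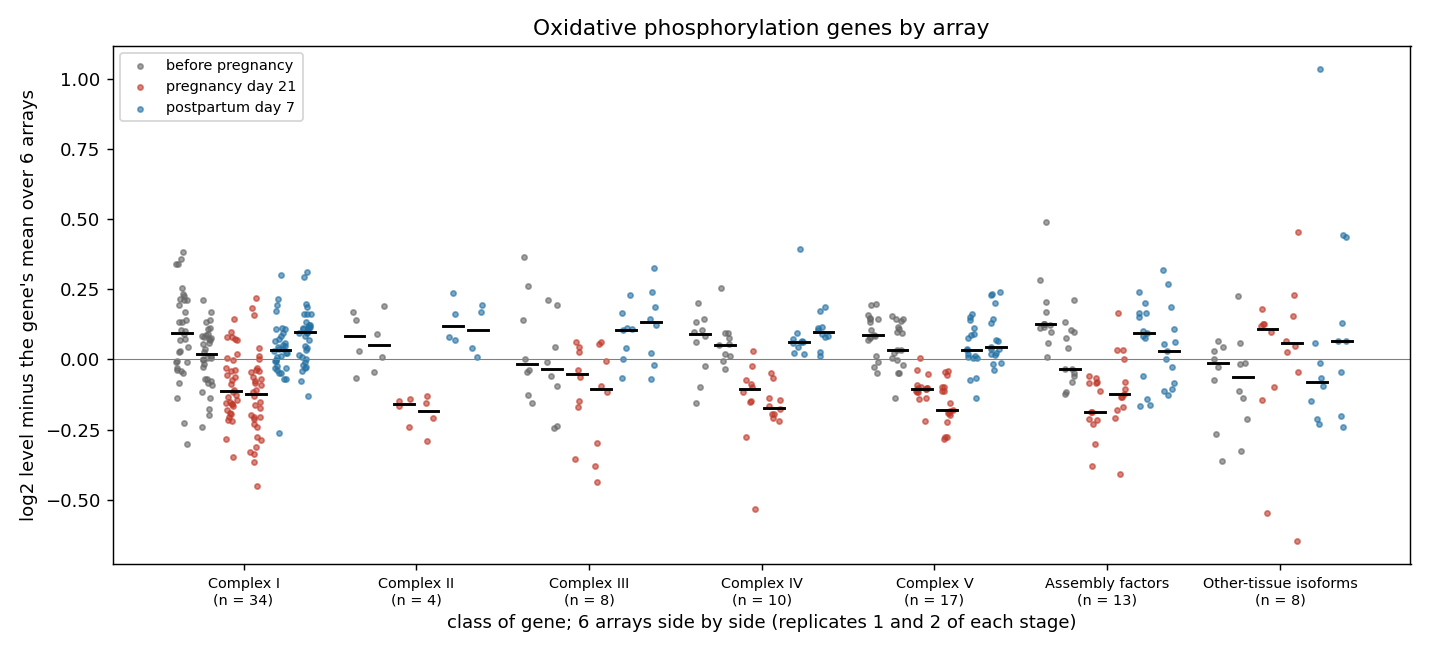
Each point is 1 gene's log2 level in 1 liver minus its mean over the 6 livers, grouped by complex, with the median marked; livers run from pre-pregnancy to pregnancy to postpartum. For complexes I, II, IV and V the medians of both pregnant livers lie between -0.11 and -0.18, below those of the other livers, and for the isoforms of other tissues they lie at 0.11 and 0.06.

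In complex I, 26 of 34 subunits had a fitted difference below 0 (median -0.19). In 21 the pregnant livers lay below both pre-pregnancy livers, where 26.0% of all genes did so. Ndufs1, the iron-sulfur subunit that carries electrons inward from the NADH site, had levels of 10.42 and 10.43 in pregnant livers, against 11.15 and 10.98 before pregnancy. The pregnant pair agreed closely and the groups did not overlap: the fitted difference was -0.64 (SE 0.111, a fall of 1.56-fold, adjusted p = 0.0114). Ndufv1, the subunit that oxidises NADH, read 11.17 and 11.12 in pregnant livers, against 11.16 and 11.14 before (difference -0.01, adjusted p = 0.981). The groups overlapped for Ndufv1; whether the 2 genes differed in their change was not tested.

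Among the accessory subunits, which surround the catalytic core, Ndufa5 had levels of 11.24 and 11.16 in pregnant livers, against 11.66 and 11.53 before pregnancy (difference -0.40, SE 0.105, adjusted p = 0.0454). Ndufb5, of the membrane arm, had 12.05 and 11.98, against 12.48 and 12.34 (difference -0.40, SE 0.104, adjusted p = 0.0438). Both fell with no overlap of the groups on these probe sets. The other bright probe set of Ndufa5 had 10.66 and 10.70 in pregnancy, against 11.03 and 10.66, with overlap (difference -0.165, adjusted p = 0.467), and the call on Ndufa5 was lost with the mean of all its probe sets. Ndufb3, also of the membrane arm, had 10.87 and 10.74 in pregnancy, against 11.21 and 11.15 before, and missed the threshold (difference -0.37, adjusted p = 0.0537). Ndufs5 fell by 0.46 (SE 0.112, adjusted p = 0.033) on a probe set near the median level of all genes, with 6.73 and 6.72 in pregnant livers, against 7.29 and 7.09 before. A far brighter probe set that Ndufs5 shares with a pseudogene read 11.49 and 11.46 in pregnancy, against 11.64 and 11.55, so the size of the Ndufs5 change is not settled. Far dimmer probe sets of Ndufb8 and Ndufs4 passed when every probe set was fitted (differences -1.01 and -1.04, adjusted p = 0.00236 and 0.00657). The brighter ones used for these genes differed by -0.195 and -0.19 and were not called.

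Ndufv3, an accessory subunit beside the NADH site, went the other way. Its levels were 11.83 and 11.91 in pregnant livers, against 11.45 and 11.51 before pregnancy, a rise of 0.39 (SE 0.102, 1.31-fold, adjusted p = 0.0423). Ndufa2 (difference 0.28, adjusted p = 0.12) and Ndufa13 (0.27, adjusted p = 0.144) also had both pregnant livers above both earlier ones, without passing the test. The call on Ndufv3 was lost when any 1 of the 6 livers was left out, as were those on Ndufa5, Ndufb5, Ndufs5 and Sdhd. Without the first pregnant replicate, the 1 member called higher was Cox4i2, a dim isoform described below.

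Of the genes counted as assembly factors, proteins that help to build the complexes, 13 of 13 had a fitted difference below 0 (median -0.195). In 8 the pregnant livers lay below both pre-pregnancy livers, where 26.0% of all genes did so. Ndufaf4, a chaperone of early complex I assembly, had 9.68 and 9.85 in pregnant livers, against 10.55 and 10.27 before pregnancy. It fell by 0.64 (SE 0.134, 1.56-fold, adjusted p = 0.0209), and its other probe set read 8.86 and 9.00, against 9.78 and 9.55. On both probe sets the groups did not overlap. The next largest differences were those of Sdhaf3 (-0.32, adjusted p = 0.09) and Ndufaf6 (-0.31, adjusted p = 0.111).

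Complex II, which is both a citric acid cycle enzyme and an entry point of the chain, had all 4 of its subunits lower in both pregnant livers than in both pre-pregnancy livers (median difference -0.25). Of all genes, 26.0% were lower in this way. Sdhd, a membrane anchor, had 11.30 and 11.16 in pregnancy, against 11.62 and 11.64 before it, and fell by 0.40 (SE 0.103, 1.32-fold, adjusted p = 0.041). Sdha, the flavoprotein that oxidises succinate, had 11.87 and 11.90, against 12.14 and 12.20 (difference -0.29, adjusted p = 0.0924). Sdhb, the iron-sulfur subunit, had 12.52 and 12.53, against 12.80 and 12.67 (difference -0.21, adjusted p = 0.204). Only Sdhd passed the test.

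Complex III was divided, with 4 of 8 subunits below 0 and 4 above (median 0.002). That median depends on the choice of probe sets: with each gene's probe sets averaged it was -0.169. Uqcrc2, a core protein, had 11.79 and 11.71 in pregnant livers, against 12.51 and 12.34 before pregnancy, which was the largest fall among the 94 genes on the probe sets used (difference -0.67, SE 0.107, 1.6-fold, adjusted p = 0.00866). Its other bright probe set read 11.96 and 11.87, against 12.17 and 12.06, a difference of -0.20, so the direction was the same on both and the size was not. Uqcrfs1, the Rieske iron-sulfur protein that passes electrons onward, had 12.10 and 11.95 in pregnancy, against 12.51 and 12.46, and fell by 0.46 (SE 0.107, 1.38-fold, adjusted p = 0.0302).

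The other subunits of complex III were not called. Uqcrh, the hinge protein that holds cytochrome c in place, had 12.38 and 12.17 in pregnancy, against 12.69 and 12.49 (difference -0.32, adjusted p = 0.123), with no overlap. Its other bright probe set had 12.28 and 12.17, against 12.26 and 12.30, with overlap (difference -0.055, adjusted p = 0.768). Uqcrc1, the partner core protein of Uqcrc2, read 12.02 and 11.88 in pregnant livers, against 11.84 and 11.75 before (difference 0.15, adjusted p = 0.385). Uqcrb and Uqcrq each differed by 0.01, but another bright probe set of Uqcrb had 11.59 and 11.54, against 11.90 and 11.87, with no overlap (difference -0.32, adjusted p = 0.0739). Uqcr11, a small accessory subunit, had 13.01 and 13.00, against 12.82 and 12.71 (difference 0.24, adjusted p = 0.149). Fitted differences in complex III thus ran from -0.67 to 0.24 on the probe sets used.

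**Figure D2:**
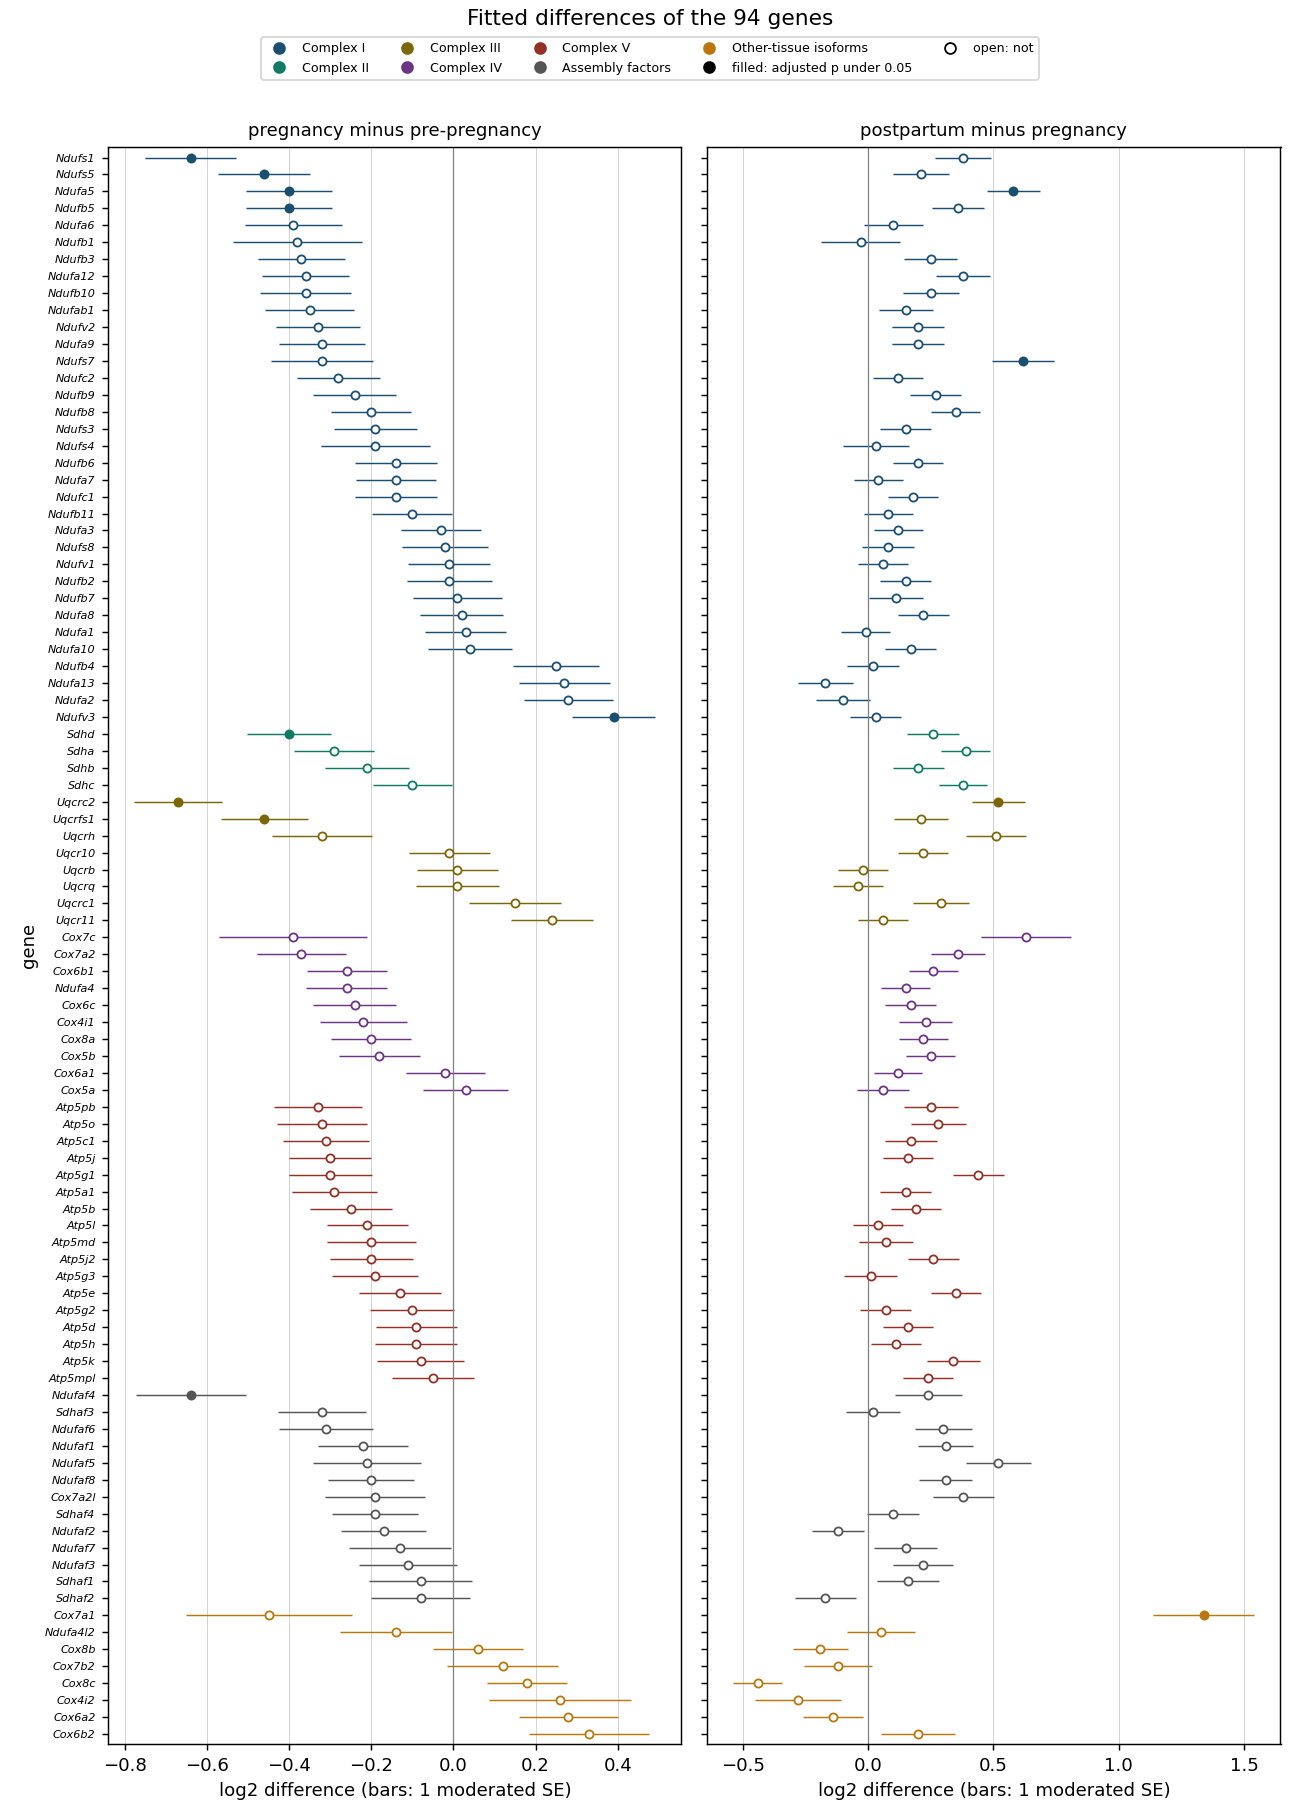
Fitted log2 difference of every member by complex, for pregnancy minus pre-pregnancy and postpartum minus pregnancy, as points with bars of 1 moderated standard error; filled points have an adjusted p under 0.05. In the first, complex V lies wholly below 0 (17 of 17, from -0.33 to -0.05) with no call on the probe sets used, while complex III lies on both sides (4 and 4).

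In complex IV, which reduces oxygen to water, 9 of 10 subunits were below 0 (median -0.23) and none (0) was called. Cox7a2, the isoform of most tissues including liver, had 12.88 and 12.95 in pregnant livers, against 13.36 and 13.21 before (difference -0.37, adjusted p = 0.0603), and its other probe set had 12.30 and 12.24, against 12.70 and 12.60 (difference -0.38). That other probe set passed in the fit of every probe set (adjusted p = 0.0478), so the call on Cox7a2 rests on the choice of probe set. Cox4i1, a large subunit that takes part in regulation, had 13.14 and 13.01, against 13.36 and 13.24 (difference -0.22, adjusted p = 0.193). Cox5a had 13.44 and 13.36, against 13.31 and 13.43, and its groups overlapped (difference 0.03). Another bright probe set of Cox5a had 12.93 and 12.92, against 13.12 and 13.16, with no overlap and the opposite sign (difference -0.215, adjusted p = 0.195). The widest difference on the scale, -0.39, was that of Cox7c, on a dim probe set with 4.79 and 5.18 in pregnancy, against 5.17 and 5.58.

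In complex V, all 17 subunits were below 0 on the probe sets used (median -0.20), and none (0) was called. In 15 of them the pregnant livers lay below both pre-pregnancy livers, where 26.0% of all genes did so. Atp5b, the catalytic beta subunit, had 12.99 and 12.90 in pregnant livers, against 13.17 and 13.23 before pregnancy (difference -0.25, adjusted p = 0.128). Atp5a1, the alpha subunit, had 12.72 and 12.64, against 12.96 and 12.98 (difference -0.29, adjusted p = 0.103); its second bright probe set had 12.50 and 12.52, against 12.95 and 12.88 (difference -0.405). Atp5pb, of the stalk that holds the head still, had 12.91 and 12.73, against 13.17 and 13.13 (difference -0.33, adjusted p = 0.08), the largest difference of the complex. Its second bright probe set had 11.98 and 11.89, against 12.56 and 12.48 (difference -0.585). In each of these subunits both pregnant livers lay below both pre-pregnancy livers on every probe set given here. The second probe sets of Atp5a1 and Atp5pb passed in the fit of every probe set (adjusted p = 0.0359 for Atp5a1 and 0.0113 for Atp5pb), so the absence of calls in complex V rests on the choice of probe sets. So does the shared direction. Another bright probe set of Atp5d had 12.22 and 12.17 in pregnancy, against 12.06 and 12.02, with no overlap (difference 0.155, adjusted p = 0.351). Another bright one of Atp5h had 12.23 and 12.21, against 12.32 and 12.12, with overlap and a difference of 0.

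The 3 genes Atp5g1, Atp5g2 and Atp5g3 encode the same mature ring subunit of complex V. Atp5g1 had 12.16 and 12.10 in pregnant livers, against 12.46 and 12.41 before (difference -0.30, adjusted p = 0.0848). Atp5g3 had 13.53 and 13.47, against 13.67 and 13.71 (difference -0.19, adjusted p = 0.261). Atp5g2 had 11.30 and 11.18, against 11.37 and 11.30, and its groups met at 11.30 (difference -0.10, adjusted p = 0.564).

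Of the 8 isoforms that serve muscle, testis or other tissues, 6 were above 0 in pregnancy (median 0.15), where 57.0% of all genes were, and none (0) was called; their difference from the other members was not tested. They were dim, with mean levels from 3.87 for Cox7b2 to 7.67 for Cox8c, and only Cox8c lay above the median gene. Cox6a2, the muscle partner of Cox6a1, had 6.31 and 6.34 in pregnancy, against 5.92 and 6.17 (difference 0.28, adjusted p = 0.157), while Cox6a1 had 14.14 and 14.10, against 14.14 and 14.13. Cox4i2, the lung partner of Cox4i1, had 5.07 and 5.62, against 5.14 and 5.03 (difference 0.26, adjusted p = 0.344); without the second pregnant liver the difference was -0.015.

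From day 21 of pregnancy to day 7 postpartum the direction was the opposite one. Of the 94 genes, 4 were higher postpartum (Ndufs7, Ndufa5, Uqcrc2 and the muscle isoform Cox7a1) and none (0) was lower; 2.41% of all genes were called higher and 0.879% lower. At an unadjusted p under 0.05, 32 members were higher and 1 was lower (11.9% and 8.78% of all genes). Fitted differences were above 0 for 81 of 94 members (86.2%), against 48.1% of all genes and 55.4% of the bright genes, and below 0 for 13 (51.1% of all genes), with medians of 0.18 over the members, -0.01 over all genes and 0.035 over the bright genes. Both postpartum livers lay above both pregnant livers in 65 of 94, where 25.1% of all genes did so, and below both in 5 of 94, where 25.0% did so. This comparison and the one before it share the pregnant livers, so a low value in pregnancy enters both. Kupffer cell and macrophage markers summed to 5505 and 5877 postpartum, against 4958 and 4032 in pregnancy, and endothelial markers to 4014 and 3765, against 4064 and 4026, with 0 of 7 and 0 of 8 called. The number called higher was 3 without the first pregnant replicate (Cox7a1, Ndufs7 and the assembly factor Ndufaf5), 0 without the second, 0 without the first postpartum replicate, and 1 without the second or without either pre-pregnancy liver.

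Ndufs7, the core subunit of complex I nearest to coenzyme Q, had 12.00 and 12.01 postpartum, against 11.52 and 11.25 in pregnancy, a rise of 0.62 (SE 0.124, 1.54-fold, adjusted p = 0.0428). Ndufa5 had 11.74 and 11.82 postpartum, against 11.24 and 11.16 in pregnancy, and rose by 0.58 (SE 0.105, 1.49-fold, adjusted p = 0.0313). Uqcrc2 had 12.26 and 12.27, against 11.79 and 11.71, and rose by 0.52 (SE 0.107, 1.43-fold, adjusted p = 0.0471). These 3 had no overlap between the groups on the probe sets used, and all 3 calls were lost with the mean of all probe sets. The other bright probe set of Ndufs7 had 11.44 and 11.54 postpartum, against 11.28 and 10.81 (difference 0.445, adjusted p = 0.178). That of Ndufa5 had 10.98 and 11.07, against 10.66 and 10.70 (difference 0.345, adjusted p = 0.223). The other bright probe set of Uqcrc2 had 12.05 and 11.99 postpartum, against 11.96 and 11.87, a difference of 0.105.

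By complex, the fitted difference between postpartum and pregnancy was above 0 for 30 of 34 subunits of complex I (median 0.15), 4 of 4 of complex II (0.32), 6 of 8 of complex III (0.22), 10 of 10 of complex IV (0.23) and 17 of 17 of complex V (median 0.175). Among those that missed the threshold, Uqcrh had 12.78 and 12.79 postpartum, against 12.38 and 12.17 (difference 0.51, adjusted p = 0.0651). Sdha had 12.27 and 12.28, against 11.87 and 11.90 (difference 0.39, adjusted p = 0.0759). Their other bright probe sets differed less, by 0.19 for Uqcrh (adjusted p = 0.374) and 0.12 for Sdha (adjusted p = 0.569). Sdhc, the other membrane anchor of complex II, had 11.41 and 11.37, against 11.01 and 11.02 (difference 0.38, adjusted p = 0.0813). Atp5g1 had 12.52 and 12.62, against 12.16 and 12.10 (difference 0.44, adjusted p = 0.0598), while Atp5g3, with 13.43 and 13.59, against 13.53 and 13.47, overlapped.

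Other members that fell in pregnancy were not called between postpartum and pregnancy. Ndufs1 had 10.88 and 10.74 postpartum, against 10.42 and 10.43 in pregnancy (difference 0.38, adjusted p = 0.108). Uqcrfs1 had 12.29 and 12.18, against 12.10 and 11.95 (difference 0.21, adjusted p = 0.316), and Ndufaf4 had 9.92 and 10.09, against 9.68 and 9.85 (difference 0.24, adjusted p = 0.358). For these 3 genes both postpartum livers lay between the pregnant and the pre-pregnancy livers. The other probe set of Ndufaf4 had a larger difference, with 9.40 and 9.52 postpartum, against 8.86 and 9.00 in pregnancy (0.53, adjusted p = 0.0669).

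**Figure D3:**
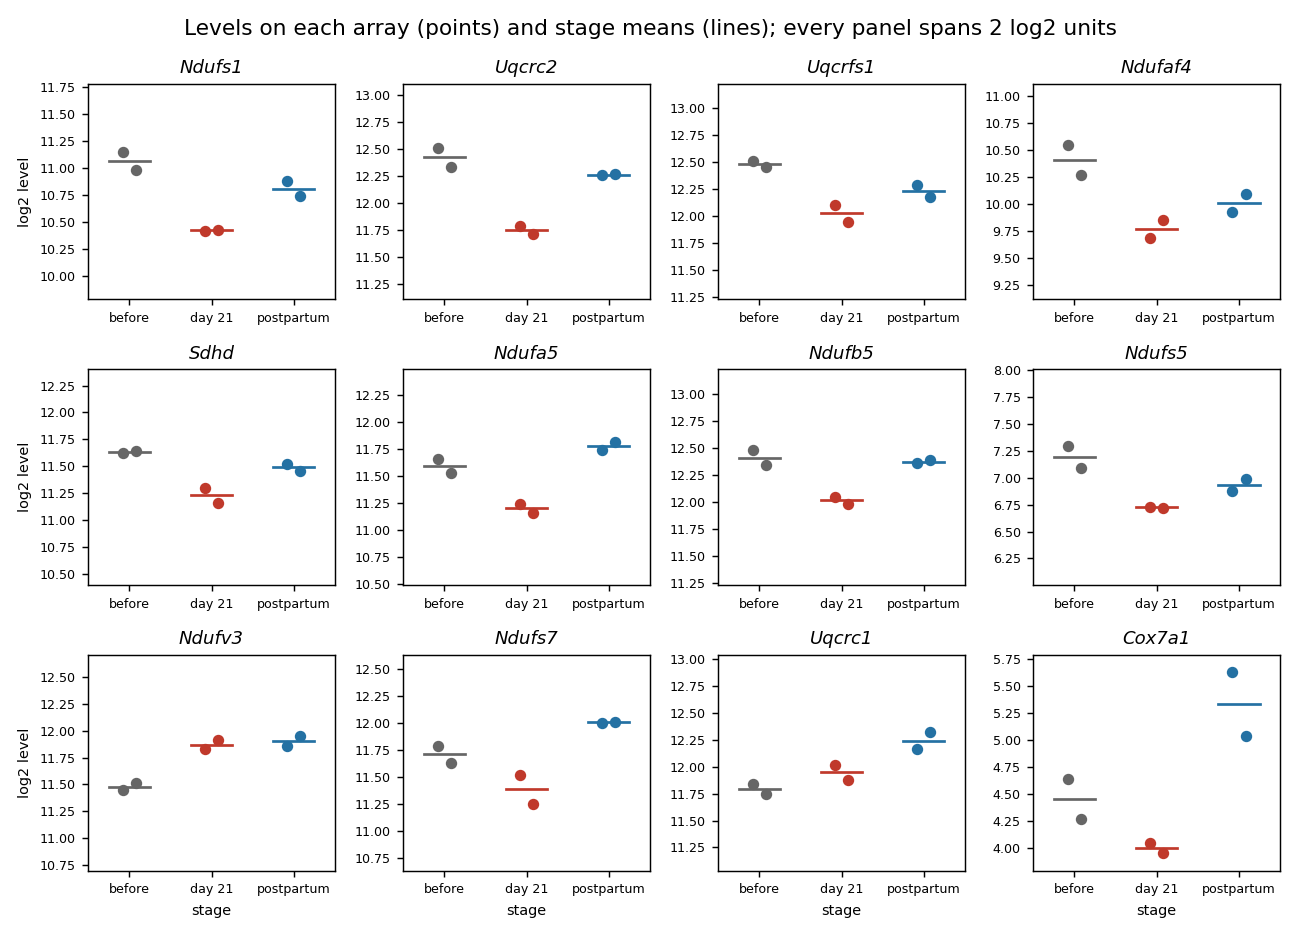
Log2 levels of named members in each liver, from pre-pregnancy to pregnancy to postpartum, 2 livers a stage. Uqcrc2, Ndufa5 and Ndufb5 are lowest in the pregnant livers, Ndufs1 and Ndufaf4 stay below their pre-pregnancy livers postpartum, and Ndufv3 is higher in pregnant and postpartum livers than before pregnancy.

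Cox7a1, the heart and muscle isoform of the Cox7a subunit, had 5.63 and 5.04 postpartum, against 4.05 and 3.95 in pregnancy, a rise of 1.34 (SE 0.202, adjusted p = 0.0174). The levels in pregnancy stood at the lower quartile of all probe sets on those arrays (3.99 and 4.0), so a signal above background was not shown there and the size of the rise is not settled. The postpartum livers themselves differed by more than any other pair of Cox7a1 replicates. Its levels stayed below the median gene (6.38) in all 6 livers, and without the first postpartum replicate the difference was 1.04 and the call was lost, as it was without the second pregnant replicate. Its liver counterpart Cox7a2 had 13.22 and 13.33, against 12.88 and 12.95 (difference 0.36, adjusted p = 0.119). Muscle markers summed to 207 and 206 postpartum, against 220 and 220 in pregnancy, with 0 of 6 called, and adipocyte markers to 45 and 49, against 45 and 50, with 0 of 3 called. Cox8c, a testis isoform, had 7.44 and 7.43 postpartum, against 7.85 and 7.90 in pregnancy (difference -0.44, adjusted p = 0.0561). Testis markers summed to 680 and 634 postpartum, against 1107 and 845, with 0 of 3 called; their part in the Cox8c values was not tested.

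At day 7 postpartum the genes as a group stood near their pre-pregnancy levels. Against the livers before pregnancy, 2 of 94 were higher (Ndufv3 and Cox7a1) and none (0) was lower, where 3.91% of all genes were called higher and 3.75% lower. At an unadjusted p under 0.05 there were 11 higher and 7 lower (12.2% and 10.7% of all genes). The median difference was 0.015 over the members and 0.025 over all genes, with 48 members above 0 and 44 below (55.0% and 43.8% of all genes). Groups did not overlap for 31 of 94 members upward, where 30.0% of all genes did so, and 29 of 94 downward, where 22.6% did so. The number called higher was 1 without either pregnant liver or the second postpartum replicate, and 0 without the first postpartum replicate or either pre-pregnancy liver. A median near 0 does not show that single genes had returned to their earlier level.

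Ndufv3 had 11.86 and 11.95 postpartum, against 11.45 and 11.51 before pregnancy (difference 0.42, SE 0.102, 1.34-fold, adjusted p = 0.0465), so both later stages were called higher than the earlier one. Both calls rest on the same pre-pregnancy livers. The call of Ndufv3 postpartum was lost with centred arrays. Leaving out 1 array gave differences between 0.38 and 0.47 for it. Cox7a1 had 5.63 and 5.04, against 4.64 and 4.27 (difference 0.88, SE 0.202, adjusted p = 0.0409), and without the first postpartum replicate the difference was 0.585. That call was lost in 5 of the 6 fits that leave out a liver, all but the one without the second postpartum replicate, and also after quantile normalization again and with only the 2 groups compared. Uqcrc1 had 12.16 and 12.32, against 11.84 and 11.75, and narrowly missed the threshold (difference 0.44, adjusted p = 0.0531). On the probe sets used, Ndufaf4, with 9.92 and 10.09, against 10.55 and 10.27, had the lowest difference in this comparison together with Ndufb1 (-0.41 each, adjusted p = 0.113 for Ndufaf4 and 0.165 for Ndufb1). The other probe set of Ndufaf4 had 9.40 and 9.52, against 9.78 and 9.55 (difference -0.205, adjusted p = 0.395).

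**Figure D4:**
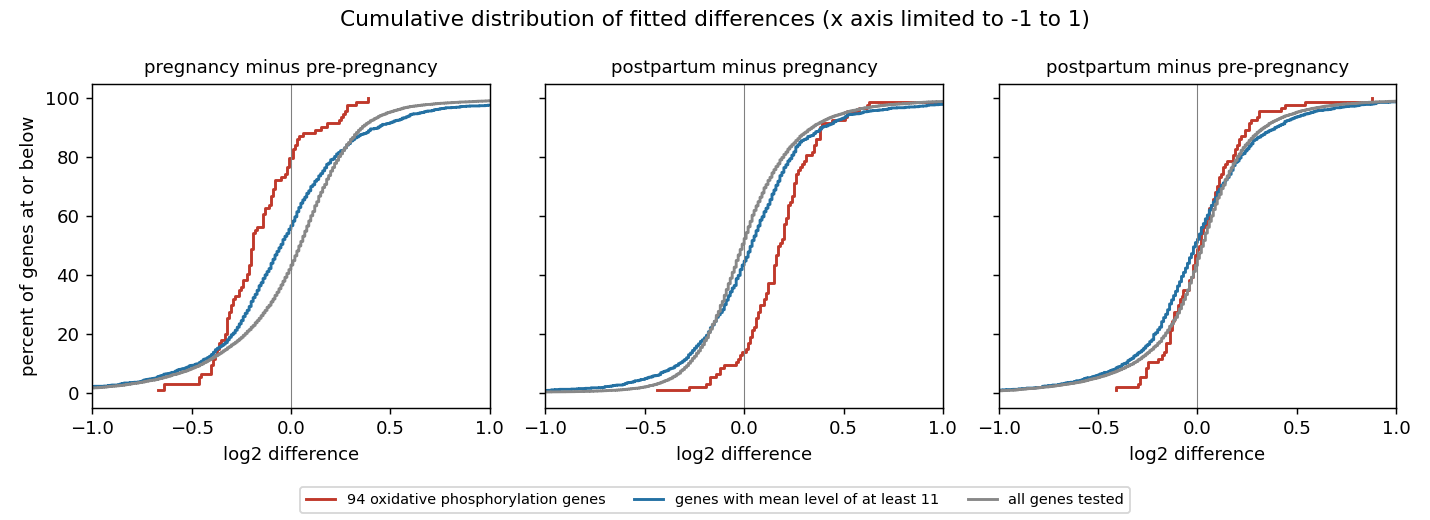
Cumulative percent of genes (vertical axis) against the fitted log2 difference (horizontal axis, limited to between -1 and 1) for the members, the genes with a mean level of at least 11 and all genes tested, in the 3 comparisons. At its middle the members' curve lies left of the others in pregnancy minus pre-pregnancy (median -0.195, against -0.05 for bright genes), right of them in postpartum minus pregnancy (median 0.178, against 0.035) and close to them in postpartum minus pre-pregnancy.

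A second reading of the same genes came from their other probe sets. Of these, 61 for 43 genes were at or above the median level of all genes. In pregnancy against pre-pregnancy 53 of the 61 had the sign of the chosen probe set (median difference -0.175), in postpartum against pregnancy 57 (median 0.175), and in postpartum against pre-pregnancy 46 (median 0.005). These probe sets share the livers and arrays with the chosen ones, so they bear on probe choice and not on the spread between animals.

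Differences were also set beside the motif content of the promoters. Among members with a mean level of at least 11 and a RefSeq promoter, the 9 that hold the NRF1 motif had a median difference of -0.10 in pregnancy against pre-pregnancy, and the 49 that do not had -0.20. For any of the motifs the medians were -0.19 in the 19 that hold 1 and -0.20 in the 39 that do not. Of the genes that fell and have a promoter entry, Ndufa5, Ndufs5, Ndufaf4 and Sdhd hold an NRF1 match, and Ndufb5 and Uqcrfs1 hold none of the motifs searched, nor does Ndufv3, which rose.

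Genes around the respiratory chain were read from lists of the pathway, each counted by its calls in the same fit, in which 8.25% of all genes were called lower and 5.46% higher in pregnancy. Of 11 genes of cytochrome c and of enzymes that feed electrons to it or to coenzyme Q, 4 fell in pregnancy and 0 rose. Cycs, cytochrome c itself, had 12.69 and 12.60 in pregnant livers, against 13.16 and 13.10 before pregnancy (difference -0.49, adjusted p = 0.021). Cyc1, the haem subunit of complex III whose symbol lies outside the rule, had 12.33 and 12.28, against 12.78 and 12.70 (difference -0.44, adjusted p = 0.0277). Prodh, proline dehydrogenase, fell 2.8-fold, and Dhodh, of pyrimidine synthesis, fell 1.31-fold.

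Of 15 genes of the citric acid cycle, which supplies the chain with NADH and succinate, 4 fell in pregnancy and 1 rose; Idh3a, a subunit of the NAD-dependent isocitrate dehydrogenase, had 9.26 and 9.53, against 10.44 and 10.39 before pregnancy (difference -1.02, adjusted p = 0.00334). Among 32 assembly factors with other symbols 3 fell and 2 rose, among 11 genes of coenzyme Q synthesis 1 fell and 0 rose, and among 10 genes of ATP export and the mitochondrial membrane 0 were called. Of 14 regulators of mitochondrial biogenesis, 1 fell and 1 rose. Tfam, which maintains and transcribes mitochondrial DNA, had 9.67 and 9.44 in pregnant livers, against 10.12 and 9.94 (difference -0.48, adjusted p = 0.0396). Nrf1 had 6.60 and 6.72, against 5.90 and 6.21 (difference 0.60, adjusted p = 0.0315), on a probe set near the median level of all genes. Ppargc1a, a coactivator of these factors, had 7.51 and 7.31, against 8.12 and 8.01, and missed the threshold (difference -0.66, adjusted p = 0.0596).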

How the data were processed

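Total RNA of each liver was extracted with Trizol, labelled with biotin and hybridised to 1 Affymetrix mouse array, per the labels' protocols. The authors deposited a table of 45101 probe sets in log2 units; RMA and Affymetrix Power Tools are named in the submitters' processing notes, and no versions or settings are given. The log2 base was inferred from the values (2.69 to 15.05). RMA as usually run gives all arrays a common distribution, so a difference here is relative to other genes.

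The platform annotation supplied the gene names (34945 with 1 symbol, 932 with several, 9160 with none, 64 controls); 34741 gene IDs were found in the gene table and 0 symbols changed. The probe set with the highest mean stood for each of 18193 genes. The test was limma's moderated test (version 3.58.1, R version 4.3.3), fitted by lmFit to stage means over all 6 arrays with eBayes (3 residual and 4.8 prior degrees of freedom), two-sided, with Benjamini-Hochberg adjustment over all genes and a threshold of 0.05. SE is the moderated standard error. With 2 livers a stage, their number limits the precision. The fit was tested on simulated arrays in which 200 of 18193 genes were changed. For pregnancy minus pre-pregnancy it recovered 0.1% of log2 changes of 0.25, 5.2% of those of 0.5 and 81.5% of those of 1. A gene that was not called is thus not shown to be unchanged.

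Named genes were, by rule, up to 10 rises and 10 falls past the threshold with no overlap of groups, the largest change of each complex, catalytic subunits and isoform pairs; others shown were chosen after their values were seen. The genes, lists and markers were chosen with earlier results of these data known. As alternatives, the fit was repeated with replicate number as a block, without dim genes (under the 40th percentile, 5.51), after a further quantile normalization, on centred arrays, with robust and trended variances, on probe set means, on every probe set, leaving out each array, fitting 2 groups only, a 2-fold change and a threshold of 0.1. Promoters came from RefSeq (GRCm38.p6), matched by gene ID.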

Additional observations from a re-analysis of the deposited data

How the results depend on the processing

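The direction of the genes as a group held under every alternative run, while the number of calls did not. The share of all genes called was not counted in the alternative fits. Their numbers of called members therefore cannot be set against a background. Members below 0 in pregnancy minus pre-pregnancy numbered 69 to 76 of 94, and members above 0 in postpartum minus pregnancy 73 to 83 of 94; these counts of direction were added as checks after the data were seen. The 8 called lower in pregnancy minus pre-pregnancy became 27 with a trended and robust variance, 14 with the mean of all probe sets, 5 with centred arrays, 4 after quantile normalization again, 4 with only the 2 groups compared, 23 at an adjusted p under 0.1 and 0 at 2-fold; leaving out 1 array gave 0 to 4. The 1 called higher became 0 with only the 2 groups compared and 0 at 2-fold, and leaving out 1 array gave 0 to 1. The 4 called higher in postpartum minus pregnancy became 14 with a trended and robust variance, 2 after quantile normalization again, 2 with the mean of all probe sets, 1 with only the 2 groups compared, 9 at 0.1 and 1 at 2-fold; leaving out 1 array gave 0 to 3. None (0) was called lower there, but 1 was after quantile normalization again, 1 at 0.1 and 1 with dim genes left out. The 2 called higher in postpartum minus pre-pregnancy became 4 with a trended and robust variance, 1 with centred arrays, 1 with only the 2 groups compared, 4 at 0.1 and 0 at 2-fold; leaving out 1 array gave 0 to 1. Leaving out 1 array leaves a stage of 1 liver, assumed to vary like the others; the cause of these shifts was not tested.

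With every one of the 185 probe sets by itself, 17 were called lower and 2 higher in pregnancy minus pre-pregnancy, with 144 below 0 and 40 above; 157 were above 0 and 28 below in postpartum minus pregnancy, and 96 above and 84 below in postpartum minus pre-pregnancy. Medians then were -0.21 (complex II), -0.033 (III) and -0.19 (IV) in pregnancy minus pre-pregnancy, 0.26, 0.147 and 0.195 in postpartum minus pregnancy, and -0.015 (II), 0.017 (III) and 0.05 (V) in postpartum minus pre-pregnancy. With the mean of all probe sets they were -0.18 (II), -0.169 (III) and -0.145 (V), then 0.259 (II), 0.25 (III) and 0.169 (IV), then -0.011 (II), 0.057 (III) and 0.065 (V). After quantile normalization again they were -0.13 (I) and -0.189 (II), then 0.272 (II) and 0.191 (III), then 0.074 (II). With centred arrays they were -0.213 (II), 0.037 (III) and -0.195 (IV), then 0.105 (I), 0.272 (II), 0.173 (III), 0.185 (IV) and 0.13 (V), with 20 members below 0 in postpartum minus pregnancy. Leaving out 1 array moved the medians to between -0.252 and -0.18 for complex IV in pregnancy minus pre-pregnancy, between 0.29 and 0.35 (II), 0.173 and 0.262 (III), 0.185 and 0.245 (IV) and 0.14 and 0.23 (V) in postpartum minus pregnancy, and between 0.055 and 0.12 (III) in postpartum minus pre-pregnancy.

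In pregnancy minus pre-pregnancy, signs changed for only 4 named genes, none of them called with all arrays. In the other comparisons, only named genes that were called or had wider differences were followed. Changes of sign among small differences were not looked for there. With 1 array left out, Cox4i2 lay between -0.015 (no second pregnant liver) and 0.535 (no first one, where it was called), Cox5a between -0.03 and 0.09, Cox6a1 between -0.035 and 0.005, and Ndufv1 between -0.03 and 0.02. Cox5a was also -0.028 after quantile normalization again and -0.05 with the mean of all probe sets, Cox6a1 was 0.02 with centred arrays, and Ndufv1 was 0.054 after quantile normalization again and 0.03 with centred arrays.

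Over all genes, deviations of same-numbered arrays correlated at 0.0285 (pregnancy and pre-pregnancy), -0.0273 (postpartum and pregnancy) and 0.111 (postpartum and pre-pregnancy). These values do not show whether the replicate numbers marked a shared batch, since one that touched few genes would leave them small. With the replicate number as a block, 6 members were called lower and 1 higher in pregnancy minus pre-pregnancy, 3 higher in postpartum minus pregnancy and 2 higher in postpartum minus pre-pregnancy.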

Other observations

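Some subunits were read, alone or also, by probe sets that carry several symbols, mostly with a pseudogene or a paralog copy, and of these only the bright one of Ndufs5 is given above. The probe set of Ndufab1, the acyl carrier protein of complex I, and its pseudogene read 11.48 and 11.36 in pregnant livers, against 12.22 and 12.08 before pregnancy, and 11.86 and 11.80 postpartum. The gap of that probe set is wider than that of the bright probe set with Ndufab1 alone, which read 12.08 and 12.00 in pregnancy, against 12.46 and 12.32. The first of 2 probe sets shared by Ndufb4, Ndufb4b and Ndufb4c read 11.84 and 11.82 in pregnancy, against 12.13 and 12.06. The probe set of Ndufs6 and Ndufs6b, by contrast, read 12.08 and 12.07 in pregnancy, against 12.05 and 12.08 before it, and 12.30 and 12.36 postpartum. The bright probe set of Ndufa11 and Ndufa11b read 11.09 and 11.18 in pregnancy, against 11.04 and 11.04.

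Between postpartum and pre-pregnancy, 3 of 15 genes of the citric acid cycle were called higher and 1 lower, and 1 of 32 assembly factors with other symbols was called higher and 0 lower, where 3.91% of all genes were called higher and 3.75% lower. Cs, citrate synthase, and Cox10, which makes the haem of complex IV, were among those higher, at log2 differences of 0.62 and 0.67. Idh3a was lower, with 9.83 and 9.69 postpartum, against 10.44 and 10.39 before pregnancy (difference -0.65, adjusted p = 0.0221 by limma).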
